A study of Mus musculus with 6 samples.

Results

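RNA abundance was described within a single culture day of mouse submandibular salivary gland organoids (mSGOs), day 5. The 3 libraries titled as control organoids of 5 days were used, out of 6 libraries in the series. Each came from a different mouse (mice 1, 2 and 3), so n = 3 throughout. The mice were female C57BL/6 animals of 8 to 12 weeks. The gland was digested, its cells were grown for 3 days as spheres, and dissociated cells were then placed in Matrigel. All 3 cultures were untreated and non-irradiated, and all were kept in WRY medium. Conditioned media supplied the Wnt signals, with Wnt3a medium making up 50% of the volume and R-spondin1 medium 10%. The growth factors FGF2 and EGF were each at 20 ng/ml, insulin was at 10 µg/ml and dexamethasone, a glucocorticoid, at 1 µM. N2 supplement and the ROCK inhibitor Y27632, at 10 µM, completed the medium. What follows is therefore the RNA of cells under these factors, with no culture lacking them at hand, and with no intact gland beside it. No comparison with another day was made.

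The submandibular gland makes saliva in acinar cells and carries it through ducts. The ducts have a luminal lining (Krt7, Krt8, Krt18 and Krt19) and basal cells (Krt5 and Krt14) that sit on the basement membrane through integrins and hemidesmosomes. Myoepithelial cells, which share Krt5 and Krt14 with basal duct cells but hold contractile proteins, surround the acini. Organoids grow from dissociated cells of this epithelium and respond to Wnt, EGF and FGF signals in the medium. Notch signalling, in which receptors on a cell are activated by Jagged or Delta ligands on its neighbour, directs fate choices in many epithelia.

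Values are CPM, the counts of a gene per 1000000 counts in all genes of that library, given as mean ± SD over the 3 mice. The kit reads the 3′ end of each transcript, so a long and a short transcript give similar numbers of reads and CPM was not divided by length. Totals were 2391446, 1918198 and 2652710 counts for mice 1, 2 and 3. Where no read of a gene was counted, up to 3 counts remain possible, a level of 1.13 to 1.56 CPM by library. An ID without a match in the annotation, ENSMUSG00000098178, took 15.01%, 13.8% and 12.9% of counts in mice 1, 2 and 3. Mitochondrial ribosomal RNA took a further 6.04% ± 0.424, and 78.6% ± 1.24 fell in protein-coding genes. These shares lower every other CPM, and the order of genes within a library is unaffected by them.

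The counts were spread over many genes, with a few IDs far above the rest. The highest were the unmatched ID and the mitochondrial ribosomal RNAs mt-Rnr2 and mt-Rnr1. 8068 gene IDs reached a mean of 10 CPM, 1798 reached 100 CPM and 72 reached 1000 CPM. The 354 most abundant IDs held 50% of all counts, and among protein-coding genes alone 729 genes held 50%. The curves of abundance against rank for the 3 mice lay almost on each other. The Spearman correlation between libraries was 0.966 to 0.978 across the 8068 genes, as a description.

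**Figure D1:**
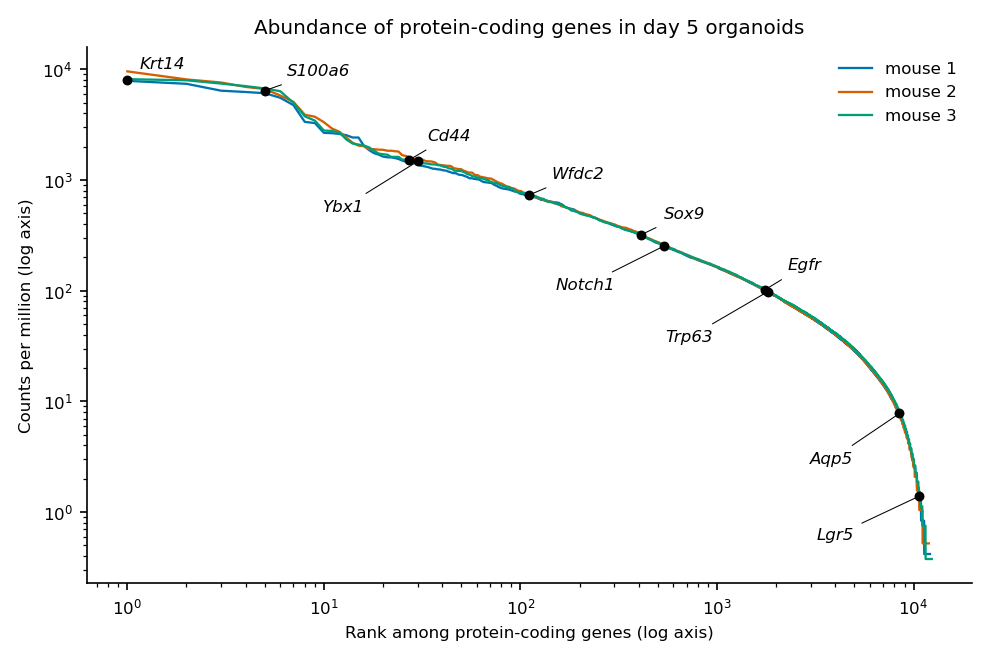
Abundance in CPM against rank for protein-coding genes, both on log axes, with a line for each mouse and points at the mean of 11 named genes. Krt14 stands at rank 1, the surface receptor Cd44 at 27, Notch1 at 539, Egfr at 1753 and Aqp5 at 8480.

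The most abundant protein-coding gene by counted reads was Krt14, a type I keratin of basal cells. It held 6236, 9575 and 8146 CPM in mice 1, 2 and 3, and was first in mice 2 and 3 but not in mouse 1. The mitochondrial genes mt-Nd2, mt-Nd1 and mt-Nd4, subunits of respiratory complex I, followed with 7973 ± 119.9, 7474 ± 109 and 6576 ± 440.4 CPM. The order of Krt14 and mt-Nd2 was not the same in the 3 mice. S100a6, a calcium-binding protein of proliferating epithelia, held 6415 ± 625 CPM, and Krt5, the type II partner of Krt14, 6165 ± 567 CPM. By mouse, S100a6 was above mt-Nd4 in mice 1 and 3 and below both mt-Nd4 and Krt5 in mouse 2. The remaining named genes among the 15 highest were the chaperone Hsp90ab1 (4937 ± 174 CPM), the actin gene Actb (3585 ± 274), mt-Cytb (3372 ± 59.2), Krt6a (3035 ± 762), the RNA-binding Serbp1 (2755 ± 139), the nucleolar Ncl (2304 ± 301), the fatty acid carrier Fabp5 (2297 ± 375), and the D-type cyclins Ccnd2 (2599 ± 178) and Ccnd1 (2208 ± 288), which drive entry into the cell cycle. Ccnd2 exceeded Ccnd1 in all 3 mice, with a ratio of 1.19 ± 0.104.

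Keratins took 2.06% ± 0.328 of all counts, and basal keratins took most of these. Krt5 and Krt14 held 68.3%, 68.2% and 69.8% of keratin counts in mice 1, 2 and 3. Krt6a, Krt6b, Krt16 and Krt17, which rise in wounded and hyperproliferative epithelium, held 21.4% ± 2.39. The luminal Krt7, Krt8, Krt18 and Krt19 held 6.44% ± 1.47. The study also names Krt17 as a luminal duct marker, but in these shares it is counted with Krt6a, Krt6b and Krt16. Thus the 3 mice kept the same order of these 3 groups, and the luminal share was the one that varied most for its size, at 7.71%, 4.84% and 6.78%.

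Among single keratins the order Krt14, Krt5, Krt6a held in each mouse. Krt14 exceeded Krt5 by 1.13, 1.44 and 1.29 times. Krt6a held 2420.3, 3888 and 2798 CPM, so that it was highest in mouse 2 and lowest in mouse 1. Krt7 (833 ± 81.5 CPM) and Krt17 (809.9 ± 109) lay close together and did not keep the same order in the 3 mice. Krt7 was the leading luminal keratin, at 7.46 ± 0.632 times Krt8 in the same library, while Krt18 was at 2.62 ± 0.154 times Krt8. Krt15, a keratin of basal and stem cells in other stratified epithelia, held 361 ± 74.5 CPM. Of the 53 keratin genes, 28 had any count and 15 reached 10 CPM. Krt10 and Krt13, which mark suprabasal layers of stratified epithelium, were present at 106 ± 13.5 and 161 ± 26.8 CPM.

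**Figure D2:**
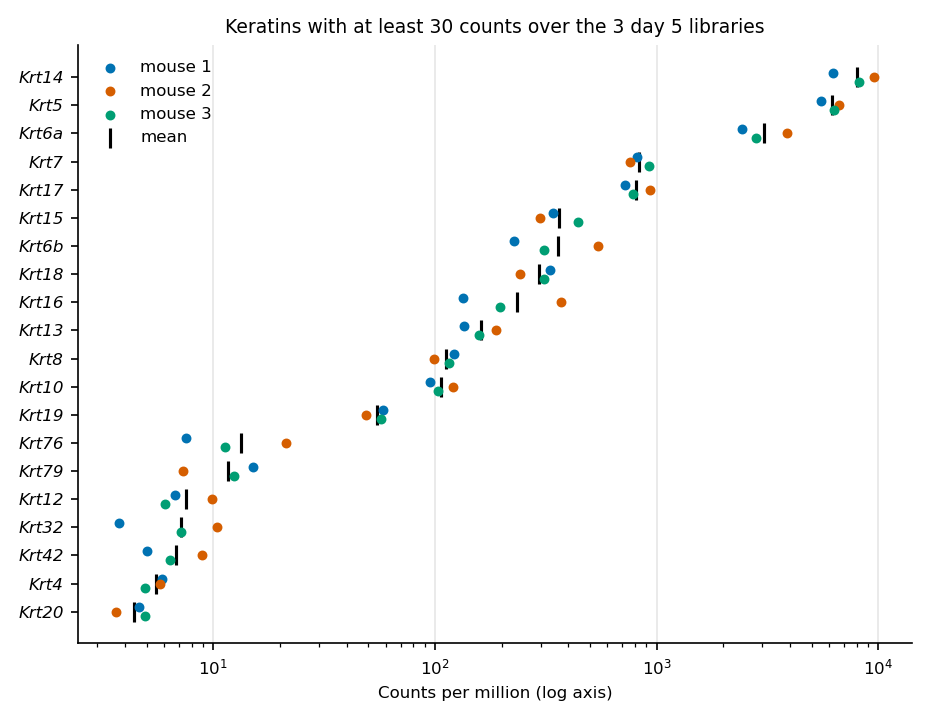
CPM on a log axis for the 20 keratins with at least 30 counts over the 3 libraries, 1 point per mouse and a bar at the mean. Krt14 and Krt5 lie above all others in each mouse, and the points of Krt6a, Krt6b and Krt16 are ordered mouse 2, mouse 3, mouse 1 from high to low.

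The sequences just upstream of the leading genes are shown so that the stress keratins, which differed widely between mice, can be set beside the leaders of the other classes. Each run is the 100 bases before the start of the canonical GENCODE vM39 transcript, read from the GRCm39 genome 5′ to 3′ on the strand of the gene. Capitals mark the letters TATAA (the core of a TATA box), GGGCGG (a GC box) and TGANTCA (the letters of an AP-1 site), searched on both strands.
Krt14 (chr11:100098491-100098590, minus strand): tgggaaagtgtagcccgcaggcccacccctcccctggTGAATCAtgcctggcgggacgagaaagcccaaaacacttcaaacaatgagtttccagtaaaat
Krt5 (chr15:101621347-101621446, minus strand): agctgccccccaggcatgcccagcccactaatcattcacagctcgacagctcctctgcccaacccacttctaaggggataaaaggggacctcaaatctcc
Krt6a (chr15:101602743-101602842, minus strand): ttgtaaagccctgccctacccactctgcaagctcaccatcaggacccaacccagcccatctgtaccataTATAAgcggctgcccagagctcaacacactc
Krt6b (chr15:101588723-101588822, minus strand): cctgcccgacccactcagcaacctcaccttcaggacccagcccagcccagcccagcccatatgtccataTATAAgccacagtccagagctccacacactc
Krt16 (chr11:100139796-100139895, minus strand): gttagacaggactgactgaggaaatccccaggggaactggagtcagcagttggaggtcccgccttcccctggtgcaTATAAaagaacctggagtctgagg
S100a6 (chr3:90520040-90520139, plus strand): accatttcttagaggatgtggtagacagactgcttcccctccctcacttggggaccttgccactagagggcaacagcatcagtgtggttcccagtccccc
Cd44 (chr2:102732011-102732110, minus strand): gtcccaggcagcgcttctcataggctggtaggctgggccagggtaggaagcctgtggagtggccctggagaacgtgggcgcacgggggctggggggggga
Itga6 (chr2:71617119-71617218, plus strand): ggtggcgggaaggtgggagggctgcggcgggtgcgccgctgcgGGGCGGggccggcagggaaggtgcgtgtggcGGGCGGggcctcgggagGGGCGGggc
Ybx1 (chr4:119151951-119152050, minus strand): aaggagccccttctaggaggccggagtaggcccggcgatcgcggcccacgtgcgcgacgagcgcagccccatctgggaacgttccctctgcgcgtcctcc

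TATAA stood 31 bases before the start in both Krt6a and Krt6b and 24 bases before it in Krt16. The same window of Krt17, the other keratin of that group, held none of the letters searched. TATAA was absent from these windows of Krt14, Krt5, S100a6, Cd44, Itga6 and Ybx1. The search was for exact letters, and the Krt5 window holds the similar run gataaaa, which was not counted. Over all 21236 protein-coding genes, 9.76% held TATAA within the 100 bases on either strand, 29.3% held GGGCGG and 2.38% held TGANTCA. Of the 12 keratins at or above 100 CPM, 5 held TATAA, and of the 41 below 100 CPM, 26 did. Counted only on the strand of the gene and 40 to 20 bases before the start, TATAA was rarer. It was found there in 4.01% of all protein-coding genes, 4 of those 12 keratins and 21 of those 41. GGGCGG was found before 12.98% of genes without a count, 42.7% of genes at 10 to 100 CPM, 44.3% of genes at 100 to 1000 CPM and 36.8% of those at 1000 CPM or more. These are matches of letters only.

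The RNA of epithelial junctions and of attachment to the basement membrane was abundant. Of 34 pan-epithelial genes, all were detected and 30 reached 10 CPM. The desmosomal plaque gene Dsp held 1385, 1474 and 1259 CPM, and the desmosome component Perp held 1024, 1544 and 1269 CPM. E-cadherin (Cdh1) was at 1033 ± 72.98 CPM and Epcam at 499.9 ± 56.6. Each of the 11 genes of hemidesmosomes and their laminin reached 10 CPM, Krt5 and Krt14 counted among them. Itga6, whose protein pairs with that of Itgb4 to hold basal cells to laminin, was at 1327 ± 106 CPM and Itgb4 at 397 ± 30.1, a ratio of 3.34 ± 0.0708. Col17a1, a transmembrane collagen of the hemidesmosome, was at 705 ± 32.8 CPM. The laminin chains Lama3 and Lamb3 were at 142 ± 17.6 and 129 ± 1.39 CPM, and Lama3 exceeded Lamb3 in 2 of 3 mice. Lamb1, a chain of other laminins, was higher at 238 ± 13.9 CPM. Claudins were low by comparison. Of 24 claudin genes, 3 reached 10 CPM, led by Cldn4 at 72.6 ± 13.8 CPM.

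Many markers of the differentiated gland had few or no counts. Of 26 matched acinar genes, 14 had no count in any library, among them Bpifa2, Smr2, Lpo, Car6 and Dnase1, which encode proteins of saliva. The acinar list summed to 467 ± 24.4 CPM, of which the chloride channel Ano1 gave 58.5%. Without Ano1 the list summed to 194 CPM, mostly the potassium channel Kcnn4 (115 ± 7.94 CPM) and the chloride importer Slc12a2 (55.1 ± 13.4 CPM). Aqp5, the acinar water channel, held 7.94, 5.21 and 10.2 CPM and Chrm3, the muscarinic receptor that drives secretion, 10.04, 5.73 and 8.29 CPM. Bhlha15, a factor of mature acinar cells, had 1 count, in mouse 3. Of 33 genes of granular and striated ducts, 0 reached 10 CPM, and the whole list summed to 34.3, 10.4 and 15.1 CPM. The study used female mice only, and describes granular convoluted tubules as a trait of male submandibular glands. The part of sex in these levels was not tested. Of the granular duct products, Egf held 1.254, 0.521 and 1.88 CPM. The kallikreins Klk1 and Klk1b26 held 4.18, 0 and 0 and 8.36, 0.521 and 0.377 CPM, so that mouse 1 was the highest in both. Klk8, a kallikrein of stratified epithelium that is not in that list, was higher at 41.3 ± 3.70 CPM. The intercalated duct list summed higher, to 1341 ± 111 CPM. Of its 14 genes, 4 reached 10 CPM, namely Krt7, which gave 62.1% of the sum, Sox9, Kcnn4 and Krt19 (54.8 ± 5.04 CPM). Its markers Kit, Gfra3, Elf5 and Sox10 were at or near 0.

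Several contractile genes that separate myoepithelial from basal duct cells had no or almost no counts. Of the 19 genes in the myoepithelial contractile list, 7 were at 0, 9 reached 10 CPM and 5 reached 100 CPM. Krt14 gave 49.3% of its sum. Acta2, Cnn1, Tagln, Oxtr, Actg2, Des and Lmod1 had no count in any mouse, and Myh11 and Myl9 had a single count each. The broader actin-binding genes of that list were high instead, with Tpm1 at 1144 ± 69.4 CPM, Cald1 at 418 ± 40.4 and Tpm2 at 253 ± 16.3. The list of stratified, cornifying epithelium spanned a wide range and summed to 4952 ± 1242 CPM, of which Krt6a gave 61.3%. Of 35 matched genes 6 were at 0 and 13 reached 10 CPM, including Krtdap (349 ± 94.3 CPM), Sprr1b (276 ± 16.3), Dmkn (248 ± 44.7) and Ivl (36.2 ± 0.266). Late cornification genes such as Flg, Tgm3 and Cnfn stayed below 1 CPM. In whole organoids, fewer cells of a type and less RNA per cell cannot be told apart.

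The populations named in the study were ordered by their defining genes. The basal duct pair Krt14 and Krt5 summed to 11768.2, 16203 and 14481 CPM in mice 1, 2 and 3. The 6 genes of stem/progenitor II (Cd44, Itgb1, Itgb4, Alcam, Trp63 and Nt5e) summed to 2802 ± 151 CPM, of which Cd44 gave 53.8%. The 6 luminal duct genes (Krt7, Krt8, Krt17, Krt18, Cldn4 and Clic1) summed to 2230.5 ± 79.6 CPM, the cycling pair Top2a and Mki67 to 1099 ± 79.4 CPM, and the 4 genes of stem/progenitor I (Sox9, Cd24a, Foxc1 and Cd164) to 790.3 ± 19.6 CPM. The 4 pro-acinar genes summed to 429 ± 26.1 CPM, almost all in Alcam and the chloride transporter Clcn3, and the 4 myoepithelial-like genes (Trp63, Sparc, Lgals7 and Csrp1) to 236 ± 2.66 CPM. Several genes serve more than 1 population, and sums over lists of different length cannot be read as shares of cells.

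Other cell types left little RNA. Of 18 macrophage and leukocyte markers 15 were at 0, including Ptprc, Adgre1, Csf1r and Lyz2, and the list summed to 8.34 to 10.9 CPM, nearly all of it Cd14. Endothelial markers summed to 12.96 to 14.6 CPM, 82.9% of it Egfl7, with Cdh5, Kdr, Tie1 and Tek at 0. Fibroblast and stroma markers summed to 113 to 179.8 CPM, but Vim (92.6 ± 24.4 CPM) and Fn1 (61.3 ± 13.05) gave nearly all of it, and Col3a1, Col1a2, Dcn, Lum and Pdgfrb were at 0. Neural and Schwann markers summed to 25.9 to 28.3 CPM, led by Ncam1 at 17.4 ± 1.24. Of the adipocyte and skeletal muscle list 98.7% was Fabp4 (195 ± 26.2 CPM), while Adipoq, Plin1, Acta1 and Ckm were at 0. All 6 erythroid markers were at 0, but 4 of them are globin genes whose 3′ ends are largely shared with a copy. The label of epithelial organoids is thus met by the markers.

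**Figure D3:**
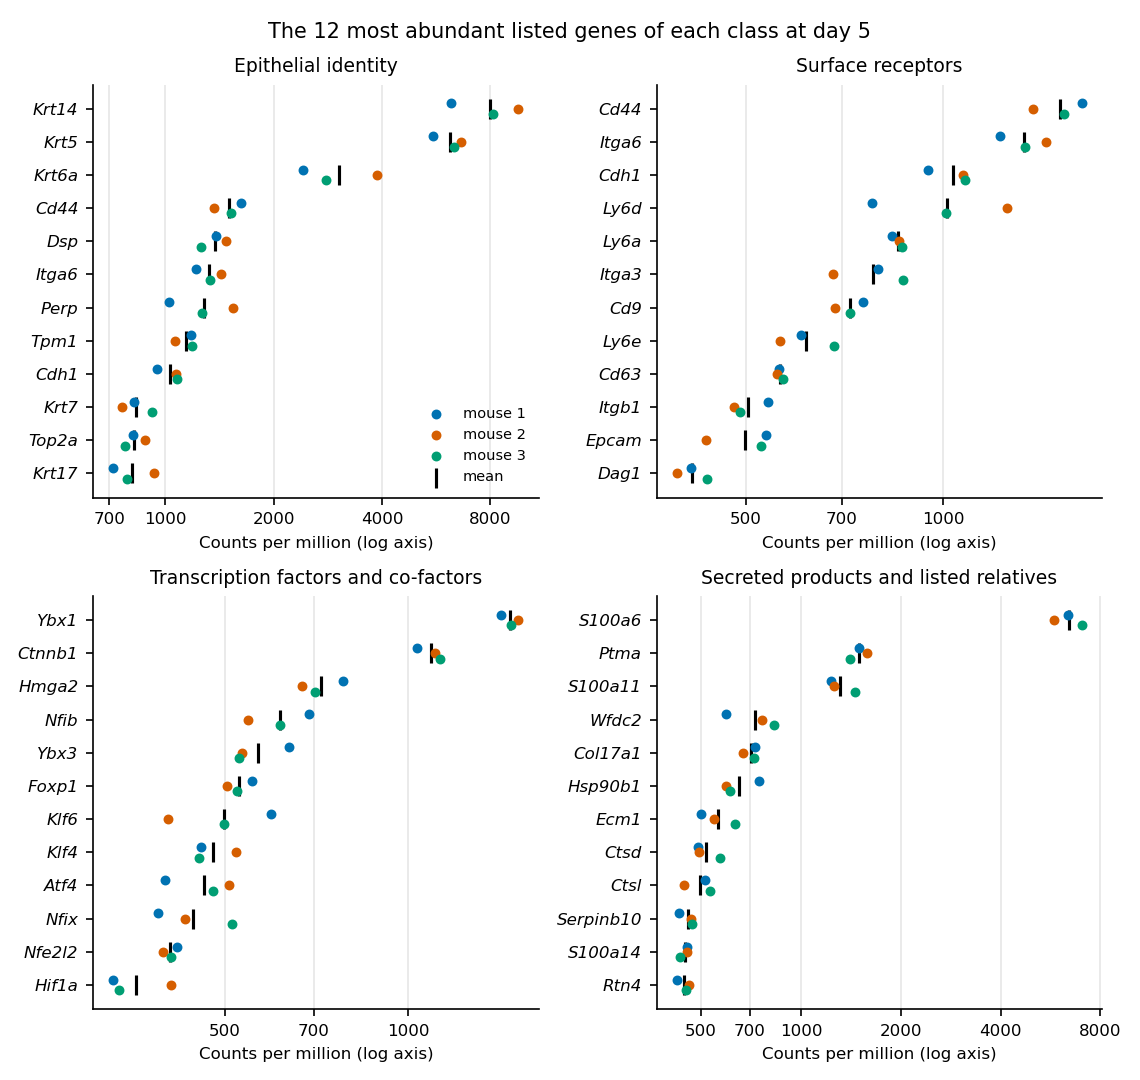
CPM on log axes for the 12 most abundant genes of each class, with 1 point per mouse and a bar at the mean. The axes differ between panels, and Krt14, Krt5, S100a6 and Krt6a stand highest.

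Surface receptors were led by adhesion molecules. Of 278 listed receptor and surface genes, 225 had a count, 140 reached 10 CPM and 43 reached 100 CPM. Cd44, a receptor for hyaluronan, held 1627, 1368 and 1528 CPM and was at rank 27 of protein-coding genes. Itga6 followed but was higher than Cd44 in mouse 2. Ly6d and Ly6a, lipid-anchored surface proteins, held 1013 ± 236 and 852 ± 14.8 CPM, and the tetraspanin Cd9 held 719.9 ± 34.3 CPM. Among integrins, 7 of 27 genes reached 10 CPM. Itga3 (781 ± 94.3 CPM) and Itgb1 (504 ± 32.7), subunits of a laminin receptor, came after Itga6, and Itga3 exceeded Itgb1 by 1.55 ± 0.188 times. Itgav (73.9 ± 8.70) and Itgb5 (40.04 ± 5.79) were far lower. Cd44 was 7.21 ± 0.530 times Cd24a and 15.02 ± 3.19 times Cd164, both surface markers of stem/progenitor I. Nt5e was at 53.9 ± 4.52 CPM.

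Receptors for the factors in the medium lay well below Cd44 and Itga6. Lgr6, a receptor for R-spondins, held 163, 223 and 227 CPM. It was above Lgr4 (78.2 ± 11.7) in each mouse, by 1.78, 3.19 and 3.11 times. Lgr5, the third receptor of this family and a stem cell marker in other organs, held 1.254, 1.04 and 1.88 CPM, near the limit that 3 counts set. The Wnt co-receptor Lrp6 was at 85.5 ± 12.9 CPM and Lrp5 at 9.28 ± 1.08. Of the Frizzled genes, Fzd1 (42.9 ± 9.89), Fzd6 (34.04 ± 2.29), Fzd7 (19.7 ± 5.83) and Fzd2 (11.98 ± 3.80) reached 10 CPM. Egfr held 110.4, 97.5 and 97.6 CPM, 4.33 ± 0.202 times Erbb2. Erbb3 was at 12.4 ± 1.13 CPM and Erbb4 was at 0. Fgfr1 (95.6 ± 13.1 CPM) exceeded Fgfr2 (20.99 ± 4.18) by 4.77, 3.22 and 6.26 times, Fgfr3 was at 2.31 ± 1.62 CPM and Fgfr4 at 0. The insulin-like growth factor receptor Igf1r (113 ± 3.34 CPM) was 10.1 ± 1.09 times the insulin receptor Insr (11.3 ± 1.56). The glucocorticoid receptor Nr3c1, the receptor for dexamethasone, was at 38.7 ± 5.26 CPM. The kinases Rock1 and Rock2, the targets of Y27632, were at 619 ± 13.5 and 424 ± 35.9 CPM. Both kinases and Nr3c1 are intracellular and were not counted among the receptors.

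Genes known to respond to these factors spanned a wide range. Of 20 matched Wnt targets, 14 were detected and 8 reached 10 CPM. The highest, Ccnd1, Cd44 and Sox9, have other inputs too. Among those used as direct readouts of the pathway, Axin2 held 16.3, 13.03 and 17.3 CPM, Znrf3 20.1, 10.4 and 13.2 and Notum 10.5, 5.21 and 10.6, while Lef1, Sp5, Nkd1, Dkk1 and Wif1 were at 0. Glucocorticoid targets were led by the metallothioneins Mt2 (1404 ± 133 CPM) and Mt1 (1278 ± 166), with Nfkbia at 888 ± 133, Sgk1 at 315 ± 20.5, Fkbp5 at 67.98 ± 13.3 and Tsc22d3 at 29.3 ± 5.10. Zbtb16, Tat and Pdk4 were at or near 0. Of 15 ERK feedback genes all were detected and 11 reached 10 CPM, with Dusp6 at 182 ± 48.3 and Phlda1 at 150.3 ± 10.8 CPM. Among targets of YAP and SRF, Tagln2 was at 687 ± 36.7 CPM and Ccn2 at 34.6 ± 22.8. The absence of cultures without the factors leaves the part of the medium in these levels untested.

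Notch receptors and ligands were both present. Notch1 held 275, 247 and 239 CPM in mice 1, 2 and 3 and stood at rank 539. It was 4.23 ± 0.685 times Notch3 (60.6 ± 5.21) and 8.58 ± 0.990 times Notch2 (30.01 ± 5.59), and Notch4 was at 0.299 ± 0.269 CPM. Notch1 gave 73.6% of the counts of the 4 receptors. Among ligands, Jag1 held 185, 166 and 191 CPM and was 5.99 ± 0.421 times Jag2 (30.2 ± 1.65). Dll1 was at 7.99 ± 1.96 CPM, and Dll3 and Dll4 were at 0. Notch1 exceeded Jag1 in each mouse, by 1.49, 1.49 and 1.252 times. Of the target genes, Hes1 held 177, 122.5 and 138 CPM and Hey1 5.44, 6.78 and 7.16 CPM. The order Notch1, Jag1, Hes1 held in all 3 mice.

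**Figure D4:**
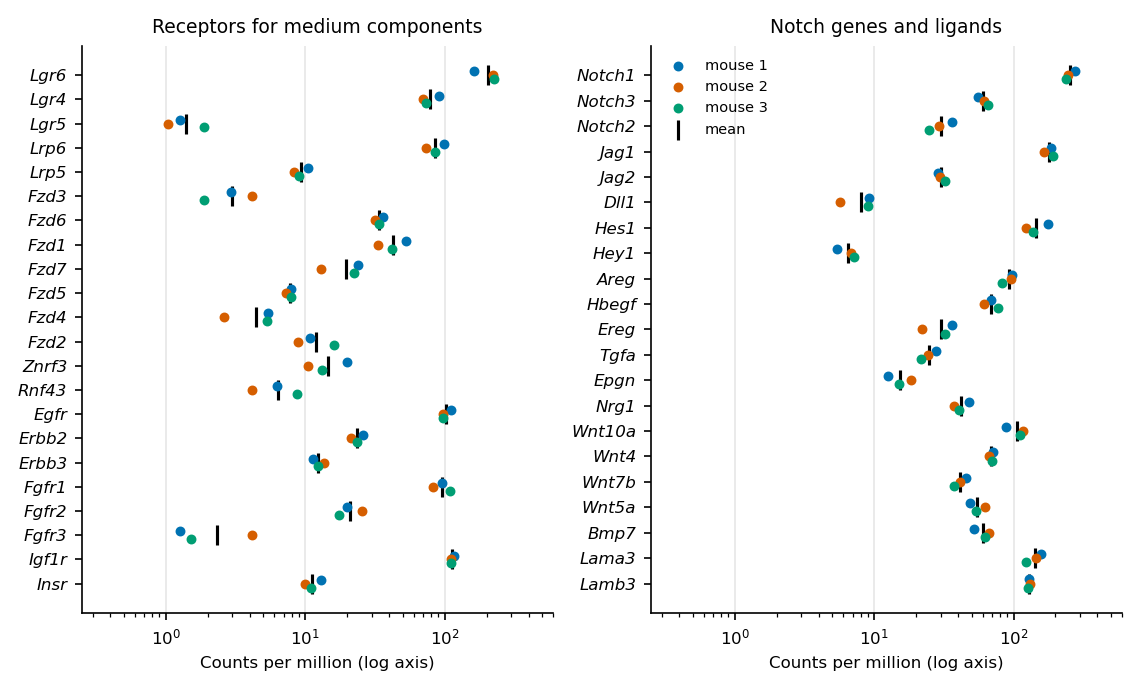
CPM on log axes for receptors of medium components (left) and for Notch genes and selected ligands (right), with 1 point per mouse and a bar at the mean. Lgr6, Igf1r, Egfr and Fgfr1 lead their families, and Notch1 and Jag1 are the highest in the right panel.

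In the receptor families that follow, the leading member held a smaller share of counts than Notch1 did in its own. The BMP receptor Bmpr1a (131 ± 13.03 CPM) gave 35.9% of the TGF-beta and BMP receptor counts, Bmpr2 was at 94.8 ± 12.2 and Tgfbr2 at 39.7 ± 6.43. The syndecan Sdc1 was at 394 ± 10.4 CPM and Sdc4 at 214 ± 20.9. Nrp1, a co-receptor for semaphorins and VEGF, was at 157 ± 28.7 CPM. Eph receptors were more even, with Epha1 at 53.8 ± 2.18 CPM, Epha4 at 37.1 ± 0.802, Ephb3 at 36.2 ± 3.04 and Epha7 at 35.8 ± 2.71. Of 42 G protein-coupled receptors of the gland, 18 were at 0 and 6 reached 10 CPM.

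Transcription factors had a median of 9.52 CPM over all listed genes, beside 10.1 CPM for the surface receptors. Of 458 listed genes, 329 had a count, 226 reached 10 CPM, 72 reached 100 CPM and 2 reached 1000 CPM. Those 2 are not classical factors. Ybx1 (1424, 1519 and 1478 CPM) binds RNA as well as DNA, and Ctnnb1 (1091 ± 49.01 CPM) encodes beta-catenin, which serves adhesion as well as Wnt signalling. Below them the chromatin factor Hmga2 held 719 ± 57.9 CPM, Nfib 617 ± 70.1, Ybx3 566 ± 61.2 and Foxp1 528 ± 24.9. The order from Ybx1 to Foxp1 held in all 3 mice. From there the neighbours overlapped: Klf6 (499 ± 96.2 CPM), Klf4 (477 ± 38.6), Atf4 (462 ± 57.1), Nfix (444 ± 63.9), Nfe2l2 (407 ± 10.9) and Hif1a (357 ± 44.8) did not keep their order in every mouse. Klf6 exceeded Klf4 by 1.303 times in mouse 1, and was below it, at 0.772 times, in mouse 2.

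Factors tied to ductal and basal identity lay lower. Sox9, needed for duct and progenitor cells of the gland, held 355, 283 and 322 CPM and Sox4 375, 231 and 283 CPM, an order that was not the same in the 3 mice. Runx1 was at 274 ± 29.6 CPM, the grainyhead relative Tfcp2l1 at 273 ± 26.05, Pitx1 at 262 ± 22.1 and Snai2 at 193 ± 20.4. Foxc1 was at 159 ± 8.41, Ehf at 162 ± 12.5 and Grhl2 at 83.2 ± 10.3 CPM. Trp63, the master factor of basal epithelial cells, held 108, 99.6 and 86.3 CPM and stood at rank 1814. Yap1 was at 140.2 ± 3.02 and Tead1 at 107 ± 5.72 CPM. All 4 Nfi genes reached 100 CPM. Of 39 Hox genes, 35 had no count and none reached 1 CPM. Lef1 was at 0, whereas Tcf7l2, Tcf7l1 and Tcf7 were at 57.5 ± 5.14, 45.3 ± 1.60 and 21.3 ± 2.18 CPM. Among AP-1 genes Junb (126 ± 8.76 CPM) and Jun (115 ± 16.9) led.

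Secreted products were led by genes that are only loosely secreted. Of 675 listed genes, 282 had no count, 182 reached 10 CPM and 3 reached 1000 CPM. Those 3 were S100a6, Ptma (1497 ± 87.8 CPM) and S100a11 (1314 ± 122), whose proteins act mainly inside cells. The first with a classical secretory role, chosen after the values were seen, was Wfdc2, a protease inhibitor of mucosal fluids, at 593, 764 and 827 CPM. By the mean, Col17a1, the chaperone Hsp90b1 (649.8 ± 82.9 CPM), the matrix protein Ecm1 (560.1 ± 67.2) and the lysosomal proteases Ctsd (517 ± 46.4) and Ctsl (496 ± 46.5) followed. Of the neighbours from Wfdc2 to Ctsl, only Ecm1 and Ctsd kept their order in all 3 mice. Igfbp7 was at 335 ± 79.5 CPM, Timp3 at 333 ± 27.9, Timp2 at 313 ± 3.73 and Mmp14 at 187 ± 44.3. The collagens after Col17a1 were Col18a1 (356 ± 43.5 CPM) and Col8a1 (289 ± 61.6), and Col4a1 of the basement membrane was at 57.7 ± 3.87. The antimicrobial Slpi held 122.5, 129.8 and 108 CPM and the alarmin Il33 at 216 ± 28.1. Of 14 mucin genes 3 had a count and none reached 1 CPM.

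RNAs of the ligand families that follow did not reach the level of the leading matrix and inhibitor RNAs. Hdgf, listed among the soluble ligands and outside these families, was higher than they were, at 442 ± 27.7 CPM. EGF family ligands were led by Areg (97.8, 95.9 and 83.3 CPM), followed in order of the mean by Hbegf (69.4 ± 8.33), Nrg1 (41.8 ± 5.23), Ereg (29.97 ± 7.26), Tgfa (24.7 ± 2.87), Epgn (15.3 ± 2.86) and Btc (11.8 ± 2.14). Areg was higher than Hbegf in each mouse. Wnt10a (88.6, 116 and 112 CPM) led the Wnt ligands, before Wnt4 (69.4 ± 1.95), Wnt5a (54.9 ± 7.12) and Wnt7b (41.4 ± 4.13), and no other Wnt gene reached 10 CPM. No FGF gene reached 10 CPM, Fgf1 being the highest at 9.81 ± 1.47. Bmp7 was at 60.4 ± 7.40 CPM and the activin antagonist Fst at 66.9 ± 13.6. Cxcl5 (94.5 ± 28.9 CPM) and Cxcl16 (69.8 ± 7.77) led the chemokines.

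Of 48 listed ligand and receptor pairs, 24 had both members at or above 10 CPM. The 5 EGFR ligands in the list were each below Egfr in all 3 mice. Jag1 was below Notch1 but above Notch2 in all 3. Wnt10a and Wnt4 exceeded Fzd6 in all 3, at 34.04 ± 2.29 CPM. Lamb3 was below Itgb4, and Lama3 below Itga3, in all 3 mice. In 13 pairs the receptor reached 10 CPM and the ligand did not. Hgf, Fgf7 and Fgf10, made by stroma in the gland, were at 0, while Met was at 79.3 ± 6.48 CPM and Fgfr2 at 20.99 ± 4.18. In 9 pairs the ligand alone reached 10 CPM, such as Vegfa (67.6 ± 7.40 CPM) with Kdr at 0, Csf1 (13.7 ± 1.02) with Csf1r at 0 and Pdgfa (66.7 ± 17.4) with Pdgfra at 0.139 ± 0.241. RNA of both members says nothing of binding.

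Genes of the dividing cell were prominent. The 77 S and G2/M phase genes held 0.990%, 1.03% and 0.943% of counts in mice 1, 2 and 3. All 46 G2/M genes had a count and 45 reached 10 CPM. They were led by the condensin subunit Smc4 (855 ± 69.7 CPM), the topoisomerase Top2a (812, 878 and 773) and the survival factor Birc5 (358 ± 37.1). Top2a exceeded Mki67 (278 ± 33.7) by 2.98 ± 0.276 times. Of 31 S phase genes 30 reached 10 CPM, led by Nasp (278 ± 23.99) and Usp1 (244 ± 3.94). The cell cycle inhibitor Cdkn1a was at 561 ± 70.7 CPM.

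The 3 mice were compared by a chi-square test of homogeneity on the raw counts of each gene, adjusted by the Benjamini-Hochberg method. The test sets these 3 libraries against counting error only, so a call says that libraries differ and nothing of a condition. Of 9775 genes with at least 30 counts, 779 were past an adjusted p of 0.05, which is 7.97%. Without mouse 1 the count was 169, without mouse 2 it was 517 and without mouse 3 it was 601, and 35 genes were called in all of these. Mouse 1 was thus the library whose removal lowered the count most, and it held both the lowest value of 46.3% and the highest of 38.9% of called genes. The share called rose with level, from 2.57% of protein-coding genes at 10 to 30 CPM to 79.4% of those at 1000 CPM or more, where counting error is smallest. Of the 779 genes, 460 differed by under 1.5-fold between the highest and the lowest mouse and 116 by over 2-fold. By class, 36 of 107 tested epithelial identity genes, 17 of 166 surface receptors, 43 of 256 transcription factors and 45 of 216 secreted products were called.

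**Figure D5:**
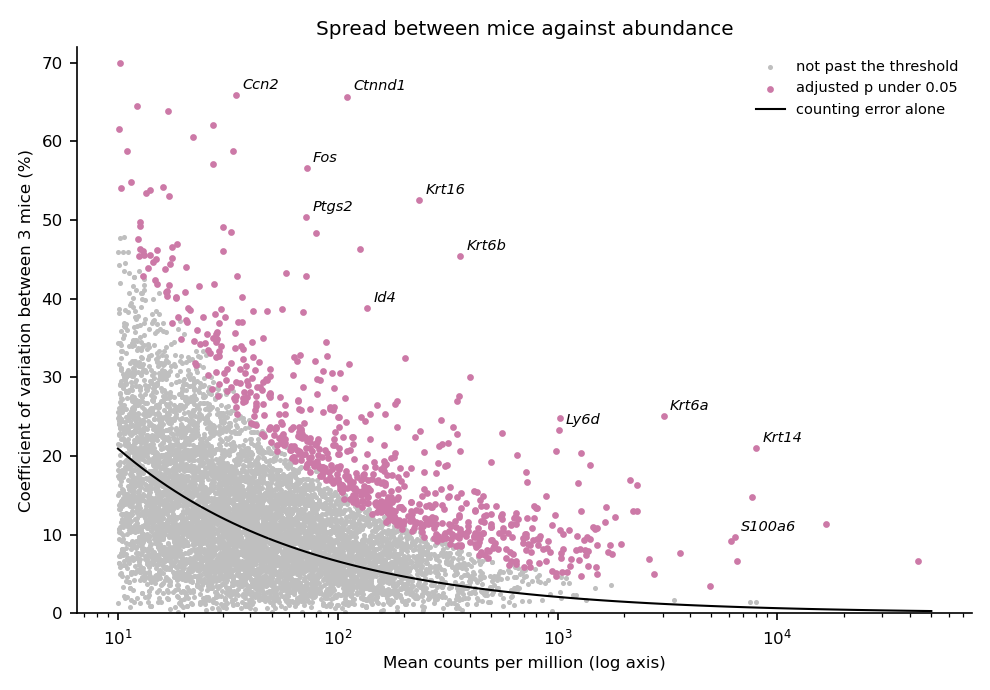
Coefficient of variation between the 3 mice in percent against mean CPM (log axis) for genes with at least 10 CPM, with genes past an adjusted p of 0.05 in colour and a line for counting error alone. Ccn2, Ctnnd1, Fos, Krt16, Ptgs2 and Krt6b lie far above the line, and many abundant genes lie above it at a small spread.

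Among the 10 called genes of largest spread, Krt16 was highest in mouse 2 and the other 9 in mouse 1. Krt16 held 134.2, 372 and 197 CPM (adjusted p = 6.21e-59, chi-square test) and Krt6b 227, 542 and 310.2 CPM. They were 2.77-fold and 2.39-fold higher in mouse 2 than in mouse 1, and both were called without each mouse in turn. Krt17, of the same group, differed less, at 718, 930.0 and 782 CPM. Of 15 tested genes of the squamous and cornified list, 8 were called, beside 7.97% called over all genes. Calls were frequent among abundant genes such as Krt6a, with 79.4% of protein-coding genes at 1000 CPM or more called. All 8 called genes of the list were lowest in mouse 1, as were 46.3% of all called genes. Of these 8, 7 were highest in mouse 2, as were 30.6% of all called genes. The exception was Sprr1a, highest in mouse 3. Ly6d (779, 1251 and 1009.9 CPM), Perp and Krt14 had the same order of mice. Ccn2, a target of YAP, held 59.4, 14.6 and 29.8 CPM, Fos 119, 45.4 and 52.02, and the prostaglandin synthase Ptgs2 113, 45.4 and 57.3. Egr1, an early response gene like Fos, had another order of mice, at 67.3, 85.5 and 101 CPM. Ccn2, Fos and Ptgs2 were highest in mouse 1 and lowest in mouse 2, as were Ctnnd1 (194, 65.2 and 72.002 CPM), Pmpcb, Gtse1, Hacd2, Spred2 and Apaf1, which complete the 10 genes of largest spread with a mean of at least 20 CPM. Without mouse 1, Ccn2 (adjusted p = 0.0499, chi-square test) and Krt16 were called among these 10, and the other 8 were not.

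Of 17 tested glycolysis genes 7 were called and 10 were not, beside 7.97% called over all genes. The 7 were lowest in mouse 1, as were 46.3% of all called genes, and they include Ldha (722, 813 and 872 CPM), Pkm (638, 749 and 765) and Slc2a1 (232, 279.9 and 295). Of 10 tested Wnt targets 3 were called and 7 were not. The 3, Ccnd1, Cd44 and Sox9, are the most abundant of the list, and were highest in mouse 1 and lowest in mouse 2. Calls became more frequent with level, and 7 of the 19 listed glycolysis genes reached 100 CPM. Of all protein-coding genes, 17.8% were called at 100 to 300 CPM, where Slc2a1 lies. At 300 to 1000 CPM, where Sox9, Ldha and Pkm lie, 42.3% were called. At 1000 CPM or more, where Ccnd1 and Cd44 lie, 79.4% were called. Library measures that differed in the same samples were the share of ribosomal protein genes, at 4.87%, 5.39% and 5.05%, and the nuclear RNA Malat1, at 8435, 6372 and 8249.7 CPM. The unmatched ID ENSMUSG00000098178 took 15.01%, 13.8% and 12.9% of counts, and protein-coding genes took 77.1%, 79.3% and 79.3%. The test used totals that include this ID, and a larger share of it lowers the CPM of other genes. The part of these measures in the differences was not tested. Ly6a, Cd63, Cd9, Nfe2l2, Foxp1, Col17a1, Notch1, Jag1, Egfr and Igf1r were not past the threshold, with coefficients of variation from 0.981% for Cd63 to 7.41% for Notch1. Some called genes varied less than Notch1, such as Hsp90ab1 at 3.52%.

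Levels of genes with near-identical copies may be too low, since reads that fit several places have no entry of their own in the files, and how they were treated is not stated. Of 9747 tested 3′ ends, 6.40% shared at least 10% of their 50-base windows with transcripts of other genes. Gapdh, usually among the most abundant RNAs, was at 46.1 ± 8.19 CPM with 90.5% of its windows shared, Actg1 at 6.43 ± 1.69 CPM with 88.9%, and Eno1 at 18.2 ± 3.92 CPM with 75.2%. Of the mitochondrial protein genes, mt-Co2, mt-Co3, mt-Atp6 and mt-Atp8 had no count and mt-Co1 held 630.0 ± 20.4 CPM with 95.3% shared. The ranks given above, that of Krt14 included, therefore hold only for the reads as counted. Among the other genes named, the share was 67.2% for Ptma, 56.1% for Ly6a, 48.8% for Cd63, 30.6% for Klk1, 22.8% for Epha1, 17.7% for mt-Nd2, 16.9% for Krt16, 15.1% for Klf4, 14.4% for Mki67 and 14.2% for Klk1b26. Whether strand was used in counting is not stated either. Exons of another gene on the opposite strand overlap the 3′ ends of Hsp90ab1, Krt6a, Ccnd1, Ctnnb1, Mt2, Ldha, Pkm, Hmga2, Nfix, Itgb4, Hif1a, Krtdap, Igfbp7, Timp3, Hsp90b1, Nasp, Slc2a1, Lamb1, Notch1, Dmkn, Nr3c1, Dusp6, Jag1, Junb, Grhl2, Cxcl16, Epha1, Erbb2, Fzd7, Fzd2, Dll1 and Aqp5, among others, so reads of the partners cannot be told apart there.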

How the data were processed

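RNA of whole organoids from 3 mice was read with the Lexogen QuantSeq 3′ mRNA-Seq kit. The authors deposited raw read counts per Ensembl gene, 1 file per library, which the labels tie to GRCm39 and edgeR. The aligner, annotation release, strand setting and handling of reads with several matches are not given in the sources used here. Of the reads in the files, 13.7% to 14.4% lay in the closing entries that name no gene. These were dropped, and counts were divided by the total in genes of each library.

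Gene names came from GENCODE vM39 (43465 of 47643 IDs matched). Classes were built from gene lists and name patterns. The members and lists were chosen with earlier results of these data known. Genes were named by a rule: the study's population and Notch genes, markers of other cell types, the 15 highest protein-coding genes, up to 12 leaders of a class and 5 of a family, listed medium receptors and response genes, members of ligand and receptor pairs, and the 10 called genes of largest spread with at least 20 CPM, passing over 1 without a name. Other genes of a list are named as examples chosen after their values were seen. The receptor lists held Hes1, Hey1, Jag1, Jag2, Nr3c1, Rock1 and Rock2, which were taken out of the receptor class after their values were seen. Genes are listed by their mean, and an order was called only where all 3 libraries kept it, since an exact sign-flip test of 3 pairs cannot go below p = 0.25. Libraries were compared by a chi-square test on genes with at least 30 counts. It was first tried on simulated counts that carried counting error only. Such counts cannot show how the test behaves where libraries have further spread. Intervals of counting error take reads as independent, and reads carry no molecular identifiers. Alternatives were TMM scaling (edgeR 4.0.16), DESeq2 1.42.0 size factors, other count minimums, leaving out the most abundant ID or mitochondrial genes, protein-coding genes alone, division by length, and leaving out each mouse. Python 3.11.15, scipy 1.17.1, R 4.3.3 and bedtools 2.31.1 were used. Libraries of other days were not used here.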

Additional observations from a re-analysis of the deposited data

Results flagged for a closer look

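Signal was present outside the genes compared here. Reads outside annotated genes made up 13.3% of reads in the library with the lowest share and 13.99% in the highest. IDs without a match in the annotation held 13.98% of counts as a mean of the 3 libraries, nearly all of it in 1 ID. With 3 libraries no test for a single distant sample was made.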

How the results depend on the processing

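The count of genes that differ between mice was 779, and it was 169 to 601 with each mouse left out in turn, the lowest without mouse 1. The number of gene IDs holding 50% of counts rose from 354 to 591 without the most abundant ID and to 729 among protein-coding genes. The share of S and G2/M phase genes rose to 1.149% and 1.26% in these settings, which take counts out of the total. Leaving that ID out also raised the marker sums to 11.1 CPM (leukocyte), 15.8 (endothelial), 31.5 (neural) and 229 (adipocyte and muscle), and multiplied CPM by a median of 1.16. Of 868 named genes, 389 moved by more than their spread there, and none did with TMM scaling. Division by transcript length put Krt14 at rank 5, Cd44 at 112, Ybx1 at 57 and S100a6 at 3, and the share of Krt5 and Krt14 among keratins at 70.9%. With each mouse left out Krt14 was at rank 1 to 3 and Ybx1 at 28 to 29. No paired analysis was possible because the only test compares the 3 mice themselves. At 1918198 to 2652710 counts per library, a gene under about 1 CPM cannot be told from 0.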
